A study of Rattus norvegicus with 8 samples.

Results

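The interferon response and antigen presentation genes are 44 rat genes chosen by symbol. They comprise 9 interferon receptors and transcription factors, 4 genes of the RNA-sensing arm, 15 interferon-induced effectors, 10 genes of MHC class I processing and presentation, and 6 genes of MHC class II presentation. Of the 17337 genes counted, 42 of these 44 had a row. Ifnar2 and Nlrc5 were not analysed here. The low-count filter used the size of the groups but not which rats belonged to which group. It kept 12014 genes and 39 of the 44. Ciita, RT1-Ba and RT1-Bb did not pass it and are described by their counts.

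The striatum, the input nucleus of the basal ganglia, was taken from 8 male Sprague-Dawley rats, an outbred wild-type stock, and each library came from a different rat. All 8 rats were trained with food, fitted with a jugular catheter and placed in 2 h sessions for 16 days. The METH group (4 rats) self-administered methamphetamine, a psychostimulant, at 0.05 mg/kg per infusion, and the saline group (4 rats) self-administered saline on the same schedule. Per the paper, more rats than these self-administered, and 4 per group with stable lever pressing were chosen for plasma sampling. Brain samples were taken after ketamine and xylazine anesthesia. The age of the rats is not given in the sources used here, and whole tissue was used, so fewer cells of a type and less RNA per cell cannot be told apart.

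Interferons are signalling proteins, and cells release type I interferon on sensing viral nucleic acid. Type I interferon acts on the receptor of Ifnar1 and Ifnar2, and transcription factors that include Stat2 and Irf9 then bind the interferon-stimulated response element (ISRE) in the promoters of antiviral genes. Interferon gamma acts on Ifngr1 and Ifngr2 and is the main inducer of the antigen presentation genes, in part through Irf1. Class I molecules present peptides cut by the proteasome and carried by the Tap1 and Tap2 transporter. Class II molecules, with their invariant chain Cd74, are carried by cells that include microglia, macrophages and B cells.

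The promoter element named for this response is shown first, as the feature that many of the 44 genes share. RefSeq promoters of the GRCr8 assembly, from 250 bases before to 50 bases after the start, were matched by symbol for 35 of the 44 genes. The ISRE core was searched as GAAANNGAAA on both strands (TTTCNNTTTC when read from the other strand), and overlapping matches counted once per promoter. It was present in 17 of the 35 promoters (48.6%), compared with 1312 of 33469 (3.92%) of all promoters in the table. The share was 8 of 10 (80%) for the effectors, 7 of 9 (77.8%) for class I genes and 0 of 5 for class II genes. Of the 9 receptor and transcription factor promoters only that of Irf7 held it. The interferon gamma-activated site, searched as TTCNNNGAA (the same on both strands), was present in 7 of the 35 (20%) and in 8.87% of all promoters. These matches describe letters in the sequence, and binding was not measured. The following windows are given 5′ to 3′ on the strand of the gene, with the core in capitals and up to 10 bases on each side. They were chosen to show the element in genes whose values are described below, from the transcription factor Irf7 to effectors and class I genes.
Irf7 (chr1:205800073-205800102, minus strand): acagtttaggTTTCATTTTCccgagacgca
Ifit3 (chr1:241527272-241527301, plus strand): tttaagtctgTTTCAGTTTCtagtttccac
Rsad2 (chr6:48788248-48788277, minus strand): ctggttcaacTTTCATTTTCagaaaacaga
Ifitm3 (chr1:205541783-205541812, minus strand): caaaattcagGAAAAGGAAActtctgagaa
Eif2ak2 (chr6:21941128-21941153, plus strand): agtccgccggGAAAACGAAAcagaga
B2m (chr3:129549170-129549199, plus strand): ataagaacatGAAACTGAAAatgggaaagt
Tap2 (chr20:4652318-4652347, minus strand): gcagcgaagtGAAAGCGAAAgcccgggacc
Psmb10 (chr19:50743293-50743319, minus strand): agtggggggtGAAAGCGAAAgtaggaa
The core ended 7 bases before the start in Eif2ak2 and 8 bases before it in Psmb10, the closest of those shown. In B2m it lay between 150 and 141 bases before the start.

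METH self-administration was compared with saline self-administration to find the genes whose striatal level differed. None of the 39 tested genes was called. A call required a Benjamini-Hochberg FDR under 0.05 over all genes tested, from edgeR's quasi-likelihood F-test, and a mean log2 CPM over 1. Of the 39, 31 had such a level and could be called. Without that threshold none was called either, the lowest edgeR FDR of the 39 being 0.178. CPM are read counts relative to library size, scaled between libraries by the TMM method. Of all 12014 genes, 0.449% were called higher and 0.0666% lower. With p below 0.05 before adjustment, 2 of the 39 were higher (Irf3 and Psmb10) and 4 were lower (Ifnar1, Ifitm3, Ifit2 and Eif2ak2), where 6.26% of all genes were higher and 4.88% lower. The rats of the groups did not overlap in Irf3 and Psmb10, both higher in METH rats, and in Ifnar1 and Ifitm3, both lower, against 3.75% of all genes separated upward and 2.65% separated downward. With the Wald test of DESeq2, Ifitm3 was called lower (FDR = 0.0358), the only one of the 39 called by that test. Of all 12014 genes, DESeq2 called 141 higher and 50 lower, where edgeR called 54 and 8. None of the 39 was called by limma-voom. DESeq2 gave no FDR for Ifit1, Mx1, Oas1a, Oasl, Tap2, RT1-Da and RT1-Db1, so that test could not call them.

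The fitted log2 fold changes of METH over saline lay between -1.07 (Ifit2) and 1.16 (Ifit1). Of the 39, 14 were above and 25 below 0, where 5842 of all 12014 genes were above and 6172 below. Their median was -0.13, compared with -0.01 for all genes tested. Within the groups, the median deviation of the 39 genes from their group means varied between rats with an SD of 0.16 (log2). By role the median was -0.10 for 8 receptors and transcription factors, -0.30 for 4 genes of RNA sensing, -0.34 for 15 effectors, 0.00 for 9 class I genes (-0.03 with scaling by total counts) and -0.30 for 3 class II genes. Leaving out the first saline rat (Saline 1) moved the median of the 39 genes to -0.03, that of the effectors to -0.03 and that of the receptors and transcription factors to 0.04. The RNA-sensing median was -0.10 without Saline 2, and the class II median was -0.02 without METH 1 and -0.65 without METH 3. The effector median was -0.61 without METH 4. With limma-voom in all 8 rats, the medians by role, in the order above, were -0.10, -0.27, -0.56, -0.06 and -0.50.

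**Figure D1:**
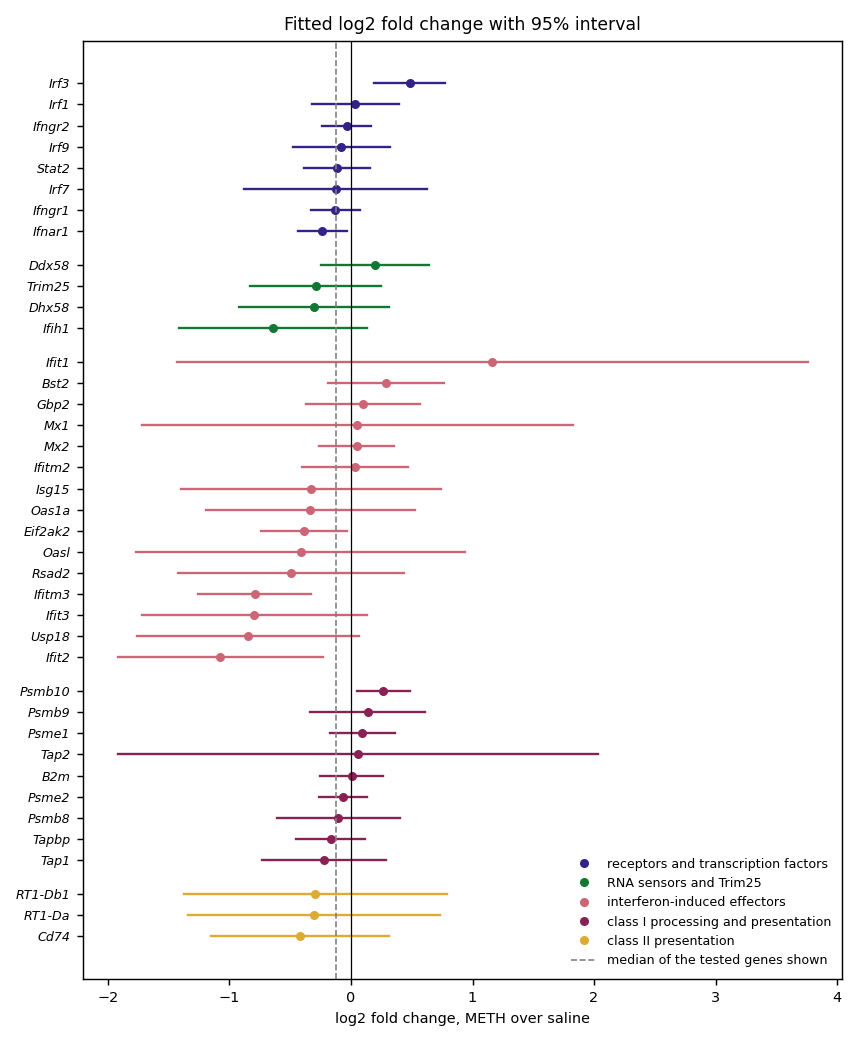
Fitted log2 fold change of METH over saline (horizontal axis) for the 39 tested genes, in rows grouped and coloured by role, with 95% intervals as lines and the median of the 39 as a dashed line at -0.13. The intervals of 33 genes cross 0. The widest belong to Ifit1, Tap2 and Mx1, which had few reads.

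Among the receptors, Ifnar1, a subunit of the type I interferon receptor, was at 83.2, 98.1, 81.2 and 83.0 CPM in saline rats 1 to 4. In METH rats 1 to 4 it was at 79.1, 76.2, 62.6 and 75.2 CPM. Every METH rat lay below every saline rat, by a narrow margin. The mean was 86.4 ± 7.86 CPM (SD, n = 4) in the saline group and 73.3 ± 7.31 CPM (SD, n = 4) in the METH group. The log2 fold change was -0.24 (SE 0.09, edgeR unadjusted p = 0.0240, FDR = 0.377). Ifngr1, the ligand-binding subunit of the interferon gamma receptor, was at 70.2, 70.4, 63.4 and 63.0 CPM in saline rats and at 68.4, 51.6, 63.6 and 60.5 CPM in METH rats. The groups overlapped, with a log2 fold change of -0.13 (SE 0.09, edgeR FDR = 0.619). Ifngr2, its partner subunit, ranged from 34.7 to 40.2 CPM in saline and from 32.3 to 40.3 CPM in METH rats.

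Irf3, the transcription factor that starts interferon production after RNA or DNA sensing, was at 30.6, 23.4, 22.8 and 26.9 CPM in saline rats and at 31.3, 34.8, 46.1 and 32.7 CPM in METH rats. All METH rats were above all saline rats, although METH 1 and Saline 1 were close. The mean was 25.9 ± 3.60 CPM (SD, n = 4) in saline and 36.2 ± 6.76 CPM (SD, n = 4) in METH rats, a log2 fold change of 0.48 (SE 0.14, edgeR unadjusted p = 0.00331, FDR = 0.197). METH 3 was the highest rat, and without it the log2 fold change was 0.35 (edgeR FDR = 0.456). Stat2, which carries the interferon signal into the nucleus, was at 33.0, 25.1, 25.3 and 26.5 CPM in saline and at 30.7, 22.3, 24.2 and 24.0 CPM in METH rats. Saline 1 and METH 1 were the highest of their groups, and the groups overlapped (log2 fold change -0.12, SE 0.13, edgeR FDR = 0.751). Irf9, the DNA-binding partner of Stat2, lay between 10.7 and 16.03 CPM in saline and between 8.81 and 14.5 CPM in METH rats. Irf1, the interferon gamma-induced activator, lay between 6.23 and 8.69 CPM in saline and between 7.19 and 8.07 CPM in METH rats.

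Of the RNA-sensing genes, Ifih1, which encodes the long double-stranded RNA sensor MDA5, was at 3.13, 4.10, 4.06 and 2.46 CPM in saline rats and at 2.55, 2.00, 0.847 and 3.37 CPM in METH rats. METH 3 was far below the other METH rats. METH 2 was also below all saline rats, whereas METH 1 and METH 4 lay among them. The log2 fold change was -0.64 (SE 0.36, edgeR FDR = 0.509), and -0.38 without METH 3 (FDR = 0.825). Trim25, the ubiquitin ligase that activates the sensor RIG-I, was at 3.35, 5.30, 4.06 and 3.59 CPM in saline and at 3.13, 4.00, 2.32 and 3.85 CPM in METH rats. METH 3 was again the lowest rat, and the log2 fold change was -0.29 (SE 0.25, edgeR FDR = 0.678). Ddx58, the gene of RIG-I itself, ranged from 4.54 to 8.10 CPM in saline and from 6.21 to 8.17 CPM in METH rats. Dhx58, which encodes the regulatory relative LGP2, ranged from 2.25 to 4.75 CPM and from 2.19 to 3.03 CPM.

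Of the 15 effectors, 6 log2 fold changes were above and 9 below 0. Ifitm3, a membrane protein that blocks virus entry, was at 9.11, 8.65, 5.99 and 6.14 CPM in saline rats and at 3.96, 4.00, 5.65 and 3.64 CPM in METH rats. Its groups did not overlap, the highest METH rat (METH 3) lying just below the lowest saline rat. The mean was 7.47 ± 1.64 CPM (SD, n = 4) in saline and 4.31 ± 0.905 CPM (SD, n = 4) in METH rats. The log2 fold change of -0.79 (SE 0.22, edgeR unadjusted p = 0.00276, FDR = 0.178) had the lowest p of the 39 genes. Its close relative Ifitm2 lay between 5.54 and 7.40 CPM in saline and between 4.90 and 8.36 CPM in METH rats, with a log2 fold change of 0.03 (SE 0.20) that took the opposite sign with limma-voom and with scaling by total counts. Ifitm2 and Ifitm3 are similar in sequence, and how the authors' counting shared reads between such genes is not given in the sources used here. The same doubt holds for the Ifit genes, Mx1 with Mx2, Oas1a and the RT1 genes.

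Ifit2, which binds RNA and restrains viral translation, was at 9.77, 7.50, 4.83 and 3.54 CPM in saline rats and at 4.26, 1.43, 1.81 and 4.64 CPM in METH rats. Saline 1, Saline 2 and, narrowly, Saline 3 were above all METH rats, and Saline 4 was below METH 1 and METH 4. Its log2 fold change was -1.07 (SE 0.39, edgeR unadjusted p = 0.0168, FDR = 0.334). Eif2ak2, the kinase PKR that halts translation on binding double-stranded RNA, was at 19.3, 22.6, 15.7 and 13.2 CPM in saline and at 14.8, 12.3, 12.1 and 14.8 CPM in METH rats. Again Saline 4 was the only saline rat that overlapped the METH rats. The log2 fold change was -0.39 (SE 0.16, edgeR unadjusted p = 0.0333, FDR = 0.412).

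Isg15, a ubiquitin-like protein joined to other proteins after interferon exposure, was at 2.85, 2.20, 2.03 and 1.13 CPM in saline and at 2.35, 0.952, 0.395 and 2.79 CPM in METH rats. METH 2 and METH 3 were below all saline rats, whereas METH 1 and METH 4 lay among the higher ones, and the log2 fold change was -0.33 (SE 0.50, edgeR FDR = 0.827), or -0.01 without METH 3 and -0.72 without METH 4. Mx1, a GTPase that blocks virus replication, was counted with 20, 29, 3 and 10 reads in saline and with 25, 6, 0 and 33 reads in METH rats. Both groups thus ranged from 3 or fewer reads to about 30, and the log2 fold change was 0.05 (SE 0.82), or -0.63 with limma-voom. Mx2 had more reads and was more even, from 18.2 to 27.4 CPM in saline and from 20.7 to 27.2 CPM in METH rats. Bst2, which tethers budding virus to the cell, ranged from 8.50 to 15.7 CPM and from 9.23 to 19.5 CPM, and Gbp2, a GTPase that attacks pathogen membranes, from 4.25 to 6.55 CPM and from 4.24 to 6.96 CPM.

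**Figure D2:**
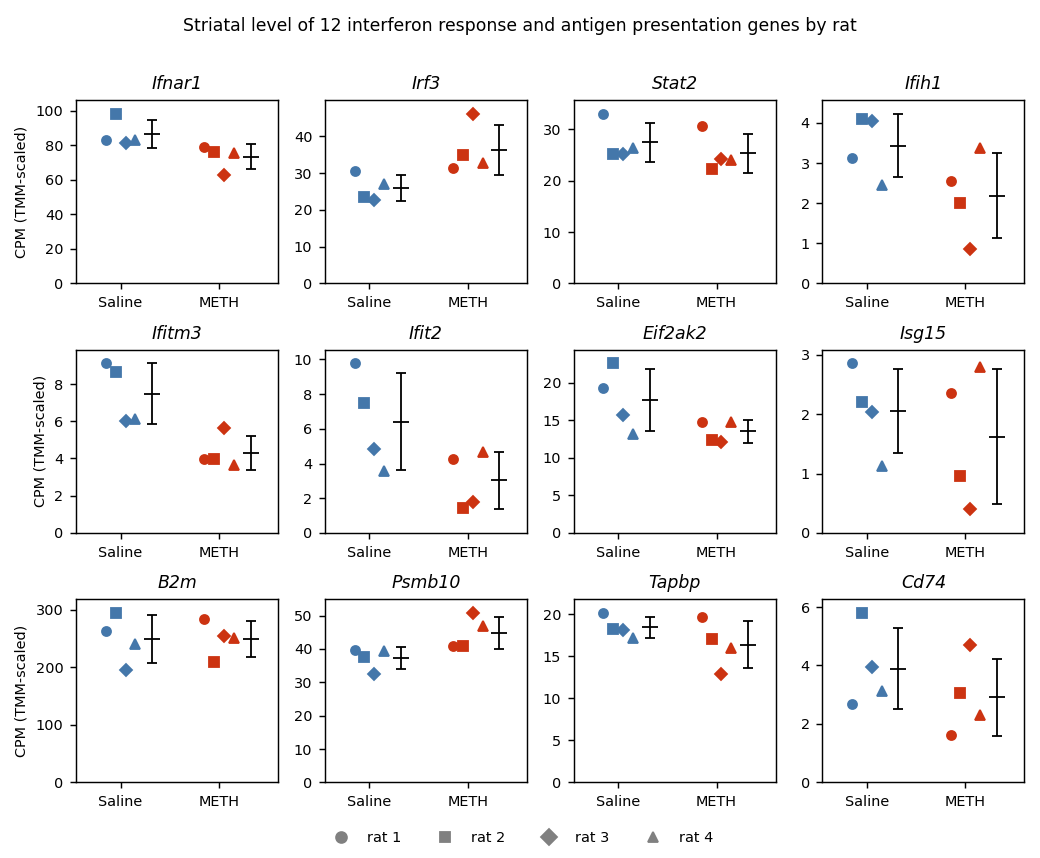
CPM (TMM-scaled, vertical axes starting at 0) of 12 genes in each saline rat (blue) and METH rat (red), with the marker shape giving the rat number within its group and the black mark giving mean ± SD (n = 4). Ifnar1, Irf3, Ifitm3 and Psmb10 show groups that do not overlap, whereas B2m has the same mean of 249 CPM in both groups.

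Saline 1 had the highest value of all 8 rats in 9 of the 15 effectors (60%) and in 14 of the 39 genes (35.9%), compared with 10.3% of all genes tested. Saline 2 was the highest in a further 11 of the 39 genes (28.2%, against 12.7% of all genes), among them 3 of the 4 RNA-sensing genes and 4 of the 9 class I genes. METH 3 was the highest rat in 7 of the 39 genes (17.9%), but in 23.1% of all genes. The 15 effectors in Saline 1 had a median log2 level 0.70 above the mean of the other saline rats, while in METH 2 the median was -0.53 relative to the other METH rats, and in METH 4 it was 0.48. In Saline 4 it was -0.48, with 1 of the 15 effectors above the other saline rats. In the 26 other interferon-induced genes tested, Saline 1 was the highest rat for 4 (15.4%), METH 3 for 6, and METH 1 and Saline 2 for 5 each.

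Several effectors in Saline 1 are given here after their values were seen. Ifit3, a partner of Ifit1 and Ifit2, was at 9.06 CPM in Saline 1 and between 1.89 and 3.55 CPM in the other saline rats, and the METH rats lay between 1.52 and 3.43 CPM. Usp18, the protease that removes Isg15 and dampens receptor signalling, was at 7.08 CPM in Saline 1, with the other saline rats between 2.08 and 2.85 CPM and the METH rats between 1.19 and 3.13 CPM. Irf7, the interferon-induced factor that amplifies interferon production, was at 10.6 CPM in Saline 1, at 4.40, 4.83 and 4.11 CPM in the other saline rats and at 5.53, 2.52, 6.72 and 7.12 CPM in METH rats. With Saline 1 left out, the log2 fold change went from -0.79 to -0.16 for Ifit3, from -0.85 to -0.29 for Usp18 and from -0.13 to 0.30 for Irf7. Rsad2, the antiviral enzyme viperin, ranged from 1.61 to 4.78 CPM in saline and from 0.791 to 3.80 CPM in METH rats, with Saline 1 the highest. Oas1a and Oasl, of the family of double-stranded RNA-activated synthetases, were also highest in Saline 1, at 2.47 and 1.59 CPM, and the METH rats reached at most 1.42 and 0.960 CPM.

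**Figure D3:**
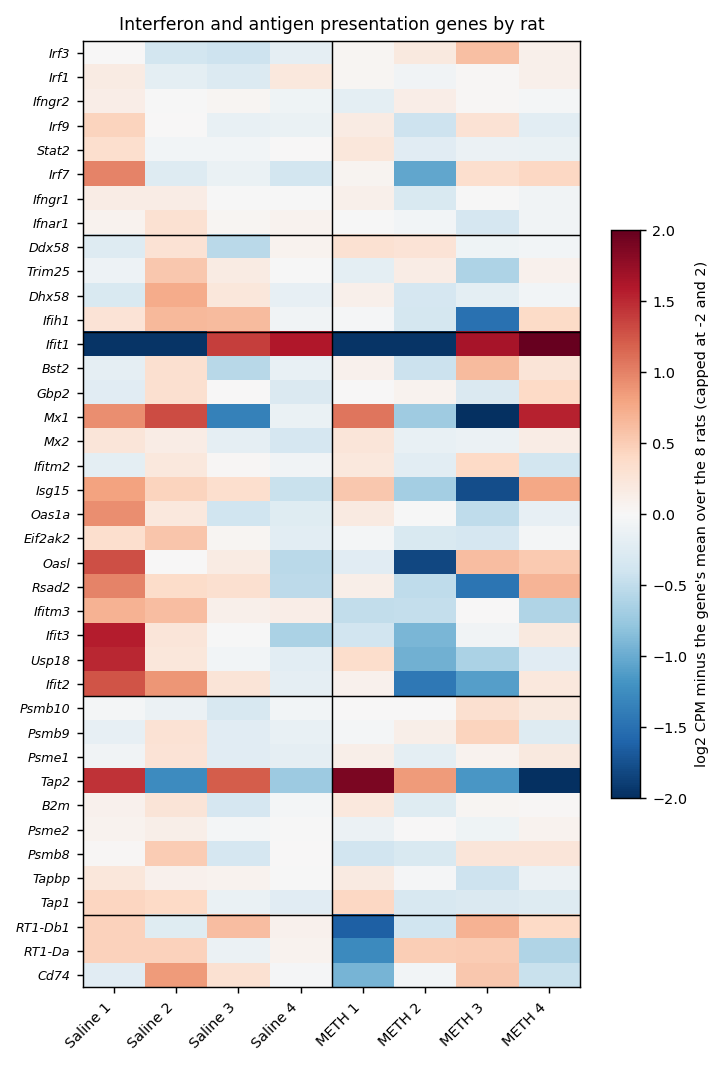
Heat map of log2 CPM minus the mean of the gene over the 8 rats, capped at -2 and 2, with the 39 tested genes in rows grouped by role and the rats in columns, saline on the left of the vertical line. Red cells of the effector block gather in Saline 1, where 9 of the 15 effectors had their highest value, and blue cells gather in METH 2.

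Class I genes took the most reads of the 5 role groups, with summed levels of 320.5 to 448 CPM in saline and 342 to 430.0 CPM in METH rats. B2m, the light chain of every class I molecule, was at 263, 294, 196 and 241 CPM in saline rats and at 284, 208, 255 and 250.1 CPM in METH rats. The groups overlapped across nearly their whole range. The log2 fold change was 0.00 (95% interval -0.25 to 0.26, edgeR FDR = 0.993), and -0.03 with scaling by total counts. Tap1, a subunit of the peptide transporter, was at 7.41, 7.25, 5.02 and 4.68 CPM in saline and at 7.39, 4.38, 4.46 and 4.59 CPM in METH rats. METH 1 stood with the higher saline rats and apart from its own group, and the log2 fold change was -0.22 (SE 0.24, edgeR FDR = 0.748). Tapbp, tapasin, which bridges the transporter and class I molecules, was at 20.1, 18.2, 18.1 and 17.2 CPM in saline and at 19.6, 17.0, 12.9 and 15.9 CPM in METH rats. METH 3 was the lowest rat, and the log2 fold change was -0.17 (SE 0.13, edgeR FDR = 0.647).

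Of the proteasome genes among the 44, Psmb10 alone had groups that did not overlap. Psmb10, a catalytic subunit of the immunoproteasome, was at 39.7, 37.6, 32.5 and 39.5 CPM in saline rats and at 40.9, 41.0, 50.8 and 46.9 CPM in METH rats. METH 1 and METH 2 were only slightly above the highest saline rat. The mean was 37.3 ± 3.36 CPM (SD, n = 4) in saline and 44.9 ± 4.85 CPM (SD, n = 4) in METH rats, with a log2 fold change of 0.27 (SE 0.10, edgeR unadjusted p = 0.0207, FDR = 0.362). Psmb8, another catalytic subunit, was at 5.49, 7.75, 4.25 and 5.43 CPM in saline and at 4.11, 4.38, 6.44 and 6.43 CPM in METH rats, with overlapping groups and a log2 fold change of -0.10 (SE 0.24, edgeR FDR = 0.898). Psmb9, the third, ranged from 4.06 to 5.80 CPM in saline and from 3.95 to 6.50 CPM in METH rats. The proteasome activator subunits Psme1 and Psme2 had log2 fold changes of 0.09 (SE 0.12) and -0.06 (SE 0.09).

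Each immunoproteasome subunit takes the place of a constitutive subunit, so their reads were also compared within each library. Psmb10 reads were 17.0%, 17.6%, 17.1% and 18.7% of those of Psmb7 in saline rats and 19.3%, 19.6%, 24.2% and 22.6% in METH rats. Every METH rat was above every saline rat, with means of 17.6% ± 0.790 (SD, n = 4) and 21.4% ± 2.36 (SD, n = 4). The difference in log2 ratio was 0.28, and the exact two-sided permutation test gave p = 0.0286, the smallest that 4 rats against 4 can give, or 0.0857 after Benjamini-Hochberg adjustment over the 3 ratios. Groups of 4 that do not overlap always give this unadjusted p. Psmb7 itself had a log2 fold change of -0.02, so the ratio largely repeats the Psmb10 values above. The adjustment covers the 3 ratios and not all genes. Psmb8 reads were 3.39% ± 0.853 of those of Psmb5 in saline and 3.05% ± 0.659 in METH rats (SD, n = 4, exact permutation p = 0.514, adjusted 0.514). Psmb9 reads were 3.33% ± 0.468 of those of Psmb6 in saline and 3.53% ± 0.423 in METH rats (SD, n = 4, exact permutation p = 0.514, adjusted 0.514). The percentages compare reads, not reads per length, and are therefore read between rats and not as subunit proportions.

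**Figure D4:**
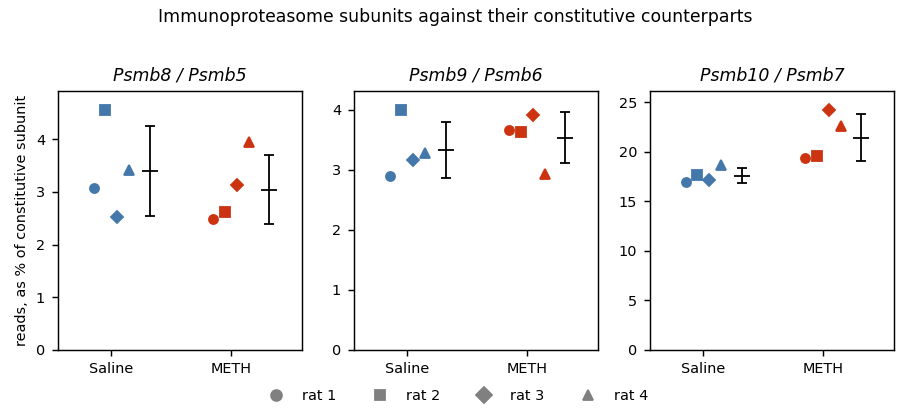
Reads of Psmb8, Psmb9 and Psmb10 as a percentage of the reads of Psmb5, Psmb6 and Psmb7 (vertical axes starting at 0) in each saline rat (blue) and METH rat (red), with the black mark giving mean ± SD (n = 4) and the marker shape giving the rat number. Groups are separate for Psmb10 to Psmb7, at 17.6% and 21.4%, and overlap for the other ratios.

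Some class I genes were counted in some rats and nearly absent from the counts of others of the same group. These were chosen after their values were seen. RT1 genes are polymorphic and the stock is outbred, and whether the counts reflect expression or how well the reads of each rat matched the reference RT1 sequences was not tested. Tap2, the second transporter subunit, was counted with 22, 2, 21 and 4 reads in saline rats and with 34, 16, 2 and 0 reads in METH rats. Saline 1, Saline 3, METH 1 and METH 2 thus had at least 16 reads and the other rats at most 4. The class I heavy chain gene RT1-CE16, which is not among the 44 genes, had 326, 5, 282 and 1 reads in saline and 675, 353, 8 and 1 reads in METH rats, high in the same rats as Tap2. RT1-A3, another class I gene, had 35, 6, 26 and 0 reads in saline and 91, 45, 0 and 0 reads in METH rats, again with the higher counts in those rats. RT1-CE1 had the opposite pattern, with 8, 51, 10 and 26 reads in saline and 8, 11, 41 and 29 reads in METH rats. Ifit1, the effector that binds uncapped viral RNA, followed neither pattern, with 0, 0, 19 and 23 reads in saline and 0, 0, 20 and 67 reads in METH rats. It was undetected in Saline 1, Saline 2, METH 1 and METH 2. A count of 0 allows up to 3 counts, which correspond to 0.142 to 0.169 CPM across the 8 rats and cover counting error only. The log2 fold change of 1.16 for Ifit1 (SE 1.21, 95% interval -1.43 to 3.76) rested on METH 4 and was -0.51 without it.

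**Figure D5:**
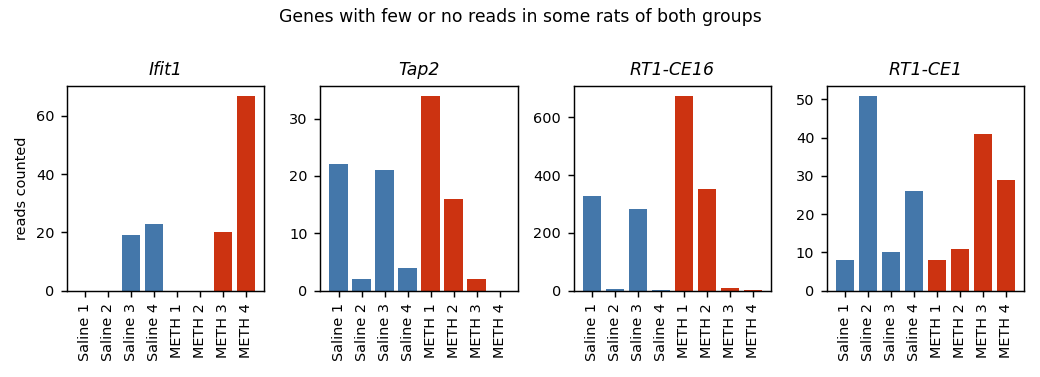
Reads counted (vertical axes starting at 0) for Ifit1, Tap2, RT1-CE16 and RT1-CE1 in each saline rat (blue bars) and METH rat (red bars). Tap2 and RT1-CE16 are high in Saline 1, Saline 3, METH 1 and METH 2, RT1-CE1 is high in the other 4 rats, and Ifit1 has 0 reads in Saline 1, Saline 2, METH 1 and METH 2.

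Of the class II genes, Cd74 had 33 to 116 reads per rat, and the others had fewer. Cd74, the invariant chain, was at 2.69, 5.80, 3.96 and 3.12 CPM in saline and at 1.62, 3.05, 4.69 and 2.32 CPM in METH rats. The ranges overlapped, and the log2 fold change was -0.42 (SE 0.34, edgeR FDR = 0.660), or -0.16 without Saline 2 and -0.74 without METH 3. RT1-Da, a class II alpha chain, was at 1.21, 1.20, 0.773 and 0.898 CPM in saline and at 0.294, 1.24, 1.24 and 0.527 CPM in METH rats. METH 1 was the lowest rat for RT1-Da and for RT1-Db1, a class II beta chain, and the log2 fold changes were -0.30 (SE 0.48) and -0.29 (SE 0.50), or -0.02 and 0.03 without METH 1. Of the genes below the filter, Ciita, the master activator of class II genes, had at most 7 reads in any rat, RT1-Bb at most 6 and RT1-Ba between 2 and 14. These 3 genes were not tested.

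The other genes of these pathways were examined as 124 genes in 5 lists, of which 95 were tested. None was called by edgeR, DESeq2 or limma-voom, and 72 of the 95 had the mean log2 CPM above 1 that a call required. At an edgeR unadjusted p below 0.05, 5 were higher and 3 lower, where 6.26% of all genes were higher and 4.88% lower. The median log2 fold change of the 95 was -0.04. Of 26 other interferon-induced genes tested, 9 had log2 fold changes above and 17 below 0, with a median of -0.12. The lowest p among them was that of Parp14, an interferon-induced ADP-ribosyltransferase, at 3.74 ± 1.20 CPM in saline and 2.00 ± 0.547 CPM in METH rats (SD, n = 4, log2 fold change -0.90, SE 0.31, edgeR unadjusted p = 0.0117, FDR = 0.301). Of 30 other class I genes, Calr, the chaperone calreticulin that helps class I molecules fold, had the lowest p, at 555 ± 49.0 CPM in saline and 662 ± 34.1 CPM in METH rats (SD, n = 4, log2 fold change 0.26, SE 0.08, edgeR unadjusted p = 0.00525, FDR = 0.232). Of 14 other class II genes, Ifi30, a lysosomal thiol reductase used in class II processing, was between 9.06 and 9.42 CPM in saline and between 9.47 and 12.3 CPM in METH rats (log2 fold change 0.31, SE 0.14, edgeR FDR = 0.429). Among 14 JAK-STAT and IRF partners the lowest p belonged to Ifnlr1, an interferon lambda receptor subunit, whose reads were 0, 5, 19 and 1 in saline and 2, 27, 29 and 69 in METH rats (edgeR FDR = 0.372). Among 11 nucleic acid sensing genes it belonged to Tlr7, a sensor of single-stranded RNA (log2 fold change -0.66, edgeR FDR = 0.458).

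Markers of the cell types that carry these genes were read beside them. Mpeg1 (log2 fold change -0.79, edgeR FDR = 0.00343) and the fractalkine receptor Cx3cr1 (log2 fold change -0.73, edgeR FDR = 0.0408) were called lower in METH rats. They were 2 of 17 microglial markers, and none was called higher, where 0.0666% of all genes were called lower and 0.449% higher. The median of the 17 was -0.20, with 4 log2 fold changes above and 13 below 0. Their summed level was 644 to 751 CPM in saline and 573 to 663 CPM in METH rats. None of the 9 endothelial markers was called, and they had a median of -0.19 and sums of 749 to 1034 CPM and 784 to 889 CPM. In Saline 1 the sums were 701 CPM for microglial and 813 CPM for endothelial markers. Perivascular macrophage markers summed to 6.53 to 12.5 CPM in saline and 8.33 to 16.5 CPM in METH rats. Markers of T and natural killer cells summed to 13.9 to 20.6 CPM and 13.5 to 21.4 CPM, and the 4 B cell markers counted, none of which passed the filter, to at most 0.242 and 0.474 CPM. Choroid plexus markers summed to 6.37 to 7.47 CPM in saline and 7.90 to 12.2 CPM in METH rats, with Otx2 at 0 in every rat. The part of these cells in the values above was not tested. Markers of striatal neurons summed to 14830.3 to 15847 CPM in saline and 15644 to 19614 CPM in METH rats, and METH 3 was the highest.

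Total counts lay between 18135939 and 21211920 per rat, and TMM factors between 0.956 and 1.02, with METH 3 the lowest. Each rat was a separate replicate by the sample labels, and no 2 libraries of a group agreed within sampling noise (smallest chi-square per degree of freedom 10.1).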

How the data were processed

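Striatal mRNA of 8 rats was captured by poly(A) selection and sequenced with paired-end reads. Per the methods and the submitters' processing notes, the authors used Cutadapt 1.18 for trimming and STAR 2.7.0e for alignment to rn6, counted reads per gene with featureCounts (Subread 1.6.4), and deposited raw counts with 1 column per rat. The annotation, strand setting and treatment of multi-mapped reads are not given in the sources used here, and genes are identified by symbol alone.

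The counts were analysed in R 4.3.3 with edgeR 4.0.16, DESeq2 1.42.0 and limma 3.58.1. Genes passed filterByExpr (minimum count 10), were scaled by TMM and were tested with the quasi-likelihood F-test, 4 METH against 4 saline rats, with Benjamini-Hochberg adjustment over 12014 genes. Called means an FDR below 0.05 and a mean log2 CPM above 1. A prior count of 2 was added for log2 CPM. The standard error is the log2 fold change divided by the square root of F. The 3 proteasome ratios were compared by exact permutation over the 70 labelings. The fit was tested on simulated data. The methods name no test for the genes. Whether the rats were littermates or processed in batches is not given, so p-values measure the spread between these rats.

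The genes, role lists, pathway lists and marker lists were chosen with earlier results of these data known. Values per rat are given for genes whose groups did not overlap, for the 3 genes with the lowest p in each role list (2 in lists of under 7), and for Stat2, Isg15, Mx1, B2m, Psmb8, Cd74 and RT1-Da. Of each pathway list the gene with the lowest p is named. Other genes with values per rat were chosen after their values were seen. Alternatives were DESeq2, limma-voom, RLE and total-count scaling, no low-count filter, no level threshold, each rat left out, and a replicate block.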

Additional observations from a re-analysis of the deposited data

Results flagged for a closer look

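In groups of 4 rats, a rat was marked when its gap to the nearest other rat on the log2 CPM scale, divided by the range of its group on that scale, passed the 95% critical value of Dixon's test. Of 90 groups checked, 5 passed, where chance marks about 1 in 20 (5%). Ifnar1 had Saline 2 as its highest saline rat, at 98.1 CPM against 81.2 to 83.2 CPM in the others (gap over range on the log2 scale 0.870). Without Saline 2 the log2 fold change of Ifnar1 was -0.17. Irf7 had Saline 1 as its highest saline rat, at 10.6 CPM against 4.11 to 4.83 CPM (log2 scale 0.831). Tap1 had METH 1 as its highest METH rat, at 7.39 CPM against 4.38 to 4.59 CPM (log2 scale 0.912), and without that rat its log2 fold change was -0.44. Psmb9 had Saline 2 as its highest saline rat, at 5.80 CPM against 4.06 to 4.25 CPM (log2 scale 0.869). The summed level of the 4 RNA-sensing genes was lowest in METH 3, at 11.8 CPM against 16.2 to 16.9 CPM in the other METH rats (log2 scale 0.890). The causes were not tested.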

How the results depend on the processing

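No tested gene of the 39 was called higher under any alternative run. With the Wald test of DESeq2, 1 was called lower (Ifitm3), and that test called 141 genes higher and 50 lower among all genes, against 54 and 8. The median of the 39 log2 fold changes stayed below 0 under all alternatives run, from -0.20 to -0.03 with a rat left out (without Saline 1 the highest). It was -0.17 with limma-voom and -0.16 with total-count scaling, which moved the median of all genes to -0.04. Of the 39 genes, 23 kept their sign under every alternative and 16 changed it with a rat left out. Leaving out rats gave ranges of -0.0868 to 0.0199 for Ifngr2, -0.28 to 0.30 for Irf7, -0.20 to 0.0712 for Irf9, -0.0437 to 0.12 for Irf1, -0.51 to 0.0272 for Oas1a, -0.71 to 0.13 for Oasl, -0.11 to 0.15 for Ifitm2, -0.61 to 0.53 for Mx1, -0.0502 to 0.14 for Mx2, -0.51 to 1.85 for Ifit1, -0.0351 to 0.24 for Gbp2, -1.02 to 0.56 for Tap2, -0.23 to 0.0765 for Psmb8, -0.0046 to 0.27 for Psmb9, -0.0948 to 0.0961 for B2m and -0.65 to 0.0336 for RT1-Db1. Among genes that kept their sign, such moves over 1.5 times included Stat2 (-0.02 without Saline 1), Trim25 (-0.14 without Saline 2), Ifngr1 (-0.06 without METH 2), Tapbp (-0.07 without METH 3), Tap1 (-0.12 without Saline 1) and Eif2ak2 (-0.25 without Saline 2). The log2 ratio of Psmb8 to Psmb5 ranged from -0.28 to 0.0048. The sign also changed with limma-voom for Mx1 (-0.63), Tap2 (-0.60) and Ifitm2 (-0.0013), and with total-count scaling for Ifitm2 (-0.0070) and B2m (-0.0303). The causes were not tested.

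Rats with the same number are different animals, and their deviations from the group means correlated at 0.01, -0.19, -0.20 and 0.04, with 2 of 8 rats closest to their own number, so the numbers were not taken as pairs. Fitted with a replicate block, none of the 39 was called (35 of all genes higher and 2 lower), their median was -0.18, and the sign changed for Mx1 (-0.22) and Tap2 (-0.20). For the log2 ratio of Psmb10 to Psmb7 the paired exact permutation p was 0.125, the smallest that 4 pairs allow. Genes with few reads, such as Ifit1, Tap2, Mx1 and RT1-Da, are limited by depth, with 3 counts at 0.142 to 0.169 CPM.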
